A study of Mus musculus with 8 samples.

Results

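The CXC chemokines described here are 9 mouse genes, Cxcl1, Cxcl2, Cxcl3, Cxcl5, Cxcl9, Cxcl10, Cxcl16, Pf4 and Ppbp. They were taken by gene name, not by their values: every probe set annotated to 1 gene only, that gene being one of the 9, was included, which gave 13 probe sets of the 34958 with a single gene symbol. Where a gene had several probe sets, the one with the highest mean over all arrays stood for it, and the others are given beside it. All 9 genes were among the 8174 of 18194 genes that were tested, which needed at least 2 arrays at or above log2 5, the level taken here as background.

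The samples were myeloid cells of C57BL/6J mice sorted for CD11b and Gr-1, surface antigens of granulocytes and monocytes. The tumor pool labelled HDC-KO carried the genotype HDC-EGFP/HDC-KO and the wild-type tumor pool the genotype HDC-EGFP, so the mice labelled wild-type also carry the EGFP reporter of Hdc, the gene of the histamine-making enzyme histidine decarboxylase. Both tumor pools came from 5 mice aged 7 months, given azoxymethane, a colon carcinogen, and then 10 days of dextran sodium sulfate, an agent that damages the colon wall, with 10 to 12 colon tumors pooled. The HDC-KO bone marrow pool (HDC-EGFP/HDC-KO) and the wild-type bone marrow pool (HDC-EGFP) came from 3 mice each, aged 3 to 4 months, with no carcinogen named, and are described as HDC-expressing cells, a gate that is not named for the tumor cells. Each of the 4 groups was hybridised to 2 arrays that the labels call technical replicates, so a group is treated as 1 RNA pool and every p below sets pools against technical spread, not against the spread between mice.

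Hdc itself read 13.02 and 13.03 (log2) in the tumor pool labelled HDC-KO, against 13.25 and 13.23 in the wild-type tumor pool, so its level goes against the HDC-KO label. In bone marrow Hdc read 9.79 and 9.87 in the HDC-KO pool, against 13.14 and 13.21 in the wild-type pool. The Y-linked gene Eif2s3y read 10.89 to 11.17 on the 4 tumor arrays, against 2.33 to 2.54 on the 4 bone marrow arrays, and Xist, which is transcribed from the inactive X chromosome, read 2.86 to 3.56, against 12.35 to 12.48. Tissue, age, carcinogen treatment, the reporter gate and the sex of the mice therefore cannot be told apart in any comparison of tumor with bone marrow. The granulocyte markers of the sort were present in all pools: Itgam, which encodes CD11b, lay between 11.21 and 12.39 and was called lower only in tumor against bone marrow in the pools labelled HDC-KO, by 2.18-fold, and the genes of the Gr-1 antigen are not analysed here.

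Chemokines are small secreted proteins that guide leukocytes along a gradient by binding receptors that span the cell membrane. Those of the CXC type with a glutamate-leucine-arginine motif before the first cysteines, which include Cxcl1, Cxcl2, Cxcl3, Cxcl5 and processed Ppbp, bind Cxcr2 and draw neutrophils. Cxcl9 and Cxcl10 are induced by interferons and bind Cxcr3 on T and NK cells, Cxcl16 is made as a membrane protein that binds Cxcr6, and Pf4 and Ppbp are best known as contents of platelet granules.

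In the RefSeq annotation of GRCm38.p6 the neutrophil chemokines and Pf4 lie next to each other on chromosome 5. Their order is Cxcl5, Ppbp, Pf4, Cxcl3, Cxcl15, Cxcl1 and Cxcl2, with Rassf6 before and Mthfd2l after them. Cxcl9 and Cxcl10 lie elsewhere on chromosome 5 with Art3 between them, and Cxcl16 lies on chromosome 11. The promoter stretches of Cxcl1, Cxcl2 and Cxcl3 are shown because these members had the largest differences between tissues, and that of Cxcl10 because it was the member above background in every pool. They are taken from RefSeq promoters of GRCm38.p6, which matched 7 of the 9 members, and run on the gene's own strand up to the base before the annotated start. Capitals mark matches, on either strand, to GGGNNNTTCC, a pattern of the NF-kappa-B site, or, first in the Cxcl10 stretch, to TTTCNNTTTC, a pattern of the interferon-stimulated response element. Overlapping matches are written as 1 capital run.
Cxcl1, chr5:90891125-90891244, plus strand: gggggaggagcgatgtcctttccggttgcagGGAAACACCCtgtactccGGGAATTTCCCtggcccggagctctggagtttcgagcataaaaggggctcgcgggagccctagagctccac
Cxcl2, chr5:90903779-90903898, plus strand: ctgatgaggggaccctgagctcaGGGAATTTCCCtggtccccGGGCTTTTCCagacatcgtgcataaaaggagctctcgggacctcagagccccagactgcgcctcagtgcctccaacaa
Cxcl3, chr5:90785981-90786100, plus strand: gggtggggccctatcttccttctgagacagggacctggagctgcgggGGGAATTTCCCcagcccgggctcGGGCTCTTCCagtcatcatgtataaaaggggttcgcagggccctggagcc
Cxcl10, chr5:92348890-92349109, minus strand: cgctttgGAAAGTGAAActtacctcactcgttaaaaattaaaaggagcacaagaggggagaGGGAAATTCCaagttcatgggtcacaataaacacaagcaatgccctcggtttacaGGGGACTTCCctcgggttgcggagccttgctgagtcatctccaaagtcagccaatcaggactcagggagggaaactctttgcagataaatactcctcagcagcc

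Cxcl1, Cxcl2 and Cxcl3 each had 3 matches to the NF-kappa-B pattern in 2 separate runs, and in each gene 1 of the runs held the same letters, beginning with GGGAATTTCC. That run began 71 bases before the start in Cxcl1, 97 in Cxcl2 and 73 in Cxcl3. Cxcl10 had 2 matches, which began 159 and 104 bases before the start, and 1 match to the interferon pattern, which began 213 bases before it. In windows of 300 bases around the start, the NF-kappa-B pattern was found in 4 of the 7 member windows and in 5.56% of 32851 RefSeq promoter windows, and the interferon pattern in 1 of 7 and in 3.44%. The windows of Ppbp, Pf4 and Cxcl9 held neither pattern. A match describes the letters only and was not linked to binding of a factor here.

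**Figure D1:**
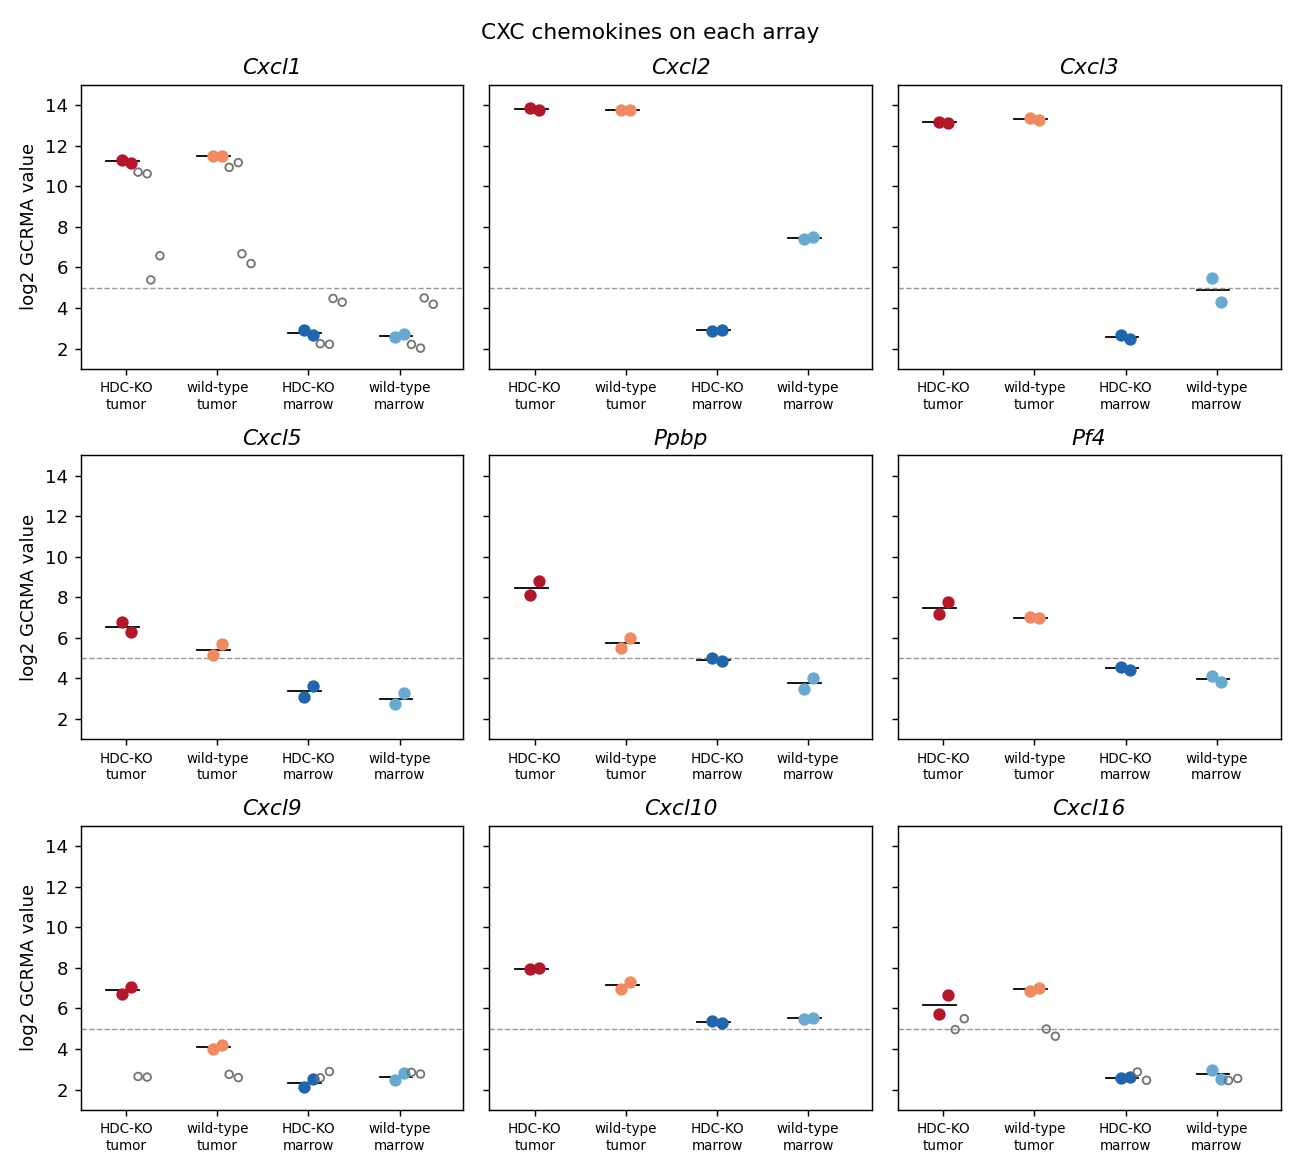
Log2 GCRMA value of each CXC chemokine (vertical axis) on the 2 technical arrays of each pool (horizontal axis, tumor pools left of bone marrow pools, HDC-KO left of wild-type). Filled points are the probe set used for the gene, the black line is their mean, open grey points are its other probe sets and the dashed line is log2 5; the filled points of Cxcl1, Cxcl2 and Cxcl3 lie above 11 on all tumor arrays, and in bone marrow only Cxcl2 in the wild-type pool and Cxcl10 in both pools have both arrays above the line.

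The neutrophil chemokines Cxcl1, Cxcl2 and Cxcl3 were far higher in tumor than in bone marrow cells, and this comparison asks what the cells express in the tumor against their marrow counterparts. Cxcl1 read 11.31 and 11.14 (log2) in the tumor pool labelled HDC-KO and 11.50 and 11.47 in the wild-type tumor pool, against 2.91 and 2.66 in the HDC-KO bone marrow pool and 2.56 and 2.72 in the wild-type bone marrow pool. All tumor arrays lay above background and all bone marrow arrays below it. Cxcl1 was therefore at least 74.7-fold higher in tumor in the pools labelled HDC-KO (limma with Benjamini-Hochberg adjustment, adjusted p = 3.76e-08) and at least 89.8-fold higher in the wild-type pools (limma, adjusted p = 9.34e-08). A bound is given because a pool mean under log2 5 was raised to log2 5 before the fold was taken. Cxcl1, like every member but Cxcl2 and Cxcl10, reached the test only through its tumor arrays. Its direction was thus fixed by the filter, and the p values are no support for it. A second Cxcl1 probe set read 10.62 to 11.17 in tumor, against 2.02 to 2.24 in bone marrow. The remaining one read 5.38 to 6.67 in tumor, against 4.18 to 4.49. Both carry suffixes of probes that may match several transcripts. The 3 probe sets, in this order, gave tumor minus bone marrow log2 differences of 8.85, 8.94 and 2.09 in the wild-type pools.

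Cxcl2, which draws neutrophils through the same receptor, read 13.85 and 13.78 in the tumor pool labelled HDC-KO and 13.76 and 13.76 in the wild-type tumor pool, against 2.86 and 2.92 in the HDC-KO bone marrow pool and 7.41 and 7.49 in the wild-type bone marrow pool. The tumor pools stood together at the top, the wild-type bone marrow pool stood between, and the HDC-KO bone marrow pool was below background. Cxcl2 was at least 450-fold higher in tumor in the pools labelled HDC-KO, with a log2 difference of 10.92 ± 0.06 (SE, n = 2 technical arrays per pool; limma, adjusted p = 5.03e-09). In the wild-type pools it was 79.2-fold higher in tumor, a log2 difference of 6.31 ± 0.06 (limma, adjusted p = 3.38e-08), which ranked 4 of the 6787 genes at or above background in both of those pools.

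Cxcl3, a close relative of Cxcl1 and Cxcl2, read 13.18 and 13.11 in the tumor pool labelled HDC-KO and 13.36 and 13.26 in the wild-type tumor pool, against 2.67 and 2.45 in the HDC-KO bone marrow pool and 5.46 and 4.27 in the wild-type bone marrow pool. The 2 arrays of the wild-type bone marrow pool lay on either side of background, a gap of 1.19, while the tumor arrays of a pool differed by less than 0.10. Cxcl3 was at least 284-fold higher in tumor in the pools labelled HDC-KO (limma, adjusted p = 7.82e-07) and at least 318-fold higher in the wild-type pools (limma, adjusted p = 6.71e-06). The wild-type bone marrow mean lay at 4.87 ± 0.84 (SD, n = 2 technical arrays), just under the floor of the bound.

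Cxcl5 and Ppbp, the other chemokines of the Cxcr2 type, had smaller differences, and in the wild-type pools neither was called once values were raised to log2 5, at 0.42 and 0.76. Cxcl5 read 6.77 and 6.30 in the tumor pool labelled HDC-KO and 5.14 and 5.69 in the wild-type tumor pool, against 3.08 and 3.64 in HDC-KO and 2.72 and 3.27 in wild-type bone marrow. It was at least 2.90-fold higher in tumor in the pools labelled HDC-KO and at least 1.34-fold in the wild-type pools (limma, adjusted p = 0.000105 and 0.000949). Ppbp read 8.11 and 8.80 in the tumor pool labelled HDC-KO and 5.51 and 6.00 in the wild-type tumor pool, against 5.01 and 4.86 in HDC-KO and 3.50 and 4.02 in wild-type bone marrow. It was at least 11.0-fold higher in tumor in the pools labelled HDC-KO and at least 1.69-fold in the wild-type pools (limma, adjusted p = 4.93e-05 and 0.00175). No bone marrow array reached a tumor array for either gene.

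Pf4, platelet factor 4, read 7.20 and 7.78 in the tumor pool labelled HDC-KO and 7.03 and 6.97 in the wild-type tumor pool, against 4.56 and 4.44 in HDC-KO and 4.13 and 3.84 in wild-type bone marrow. It was above background on all tumor arrays and below it on all bone marrow arrays, at least 5.63-fold higher in tumor in the pools labelled HDC-KO and at least 3.99-fold in the wild-type pools (limma, adjusted p = 1.48e-05 and 4.85e-05). Of 14 measured platelet and megakaryocyte markers, 10 were under log2 5 on all 8 arrays, among them Itga2b, Gp9, Gp5, Gp6, Treml1, Vwf and Tubb1. The summed linear level of the list was 369 to 382 in the tumor pool labelled HDC-KO and 250 to 283 in the wild-type tumor pool, against 516 to 537 in HDC-KO and 630 to 689 in wild-type bone marrow. Itgb3, an integrin chain called lower in tumor in both genotypes, made up most of the sum in bone marrow. P2ry12 was called higher in tumor in both genotypes, at least 2.77-fold in the pools labelled HDC-KO and with both wild-type pools under log2 5. Clec1b differed by 1.00 in the pools labelled HDC-KO, short of the threshold, and was 2.03-fold lower in tumor in the wild-type pools, and Selp gave no call. The part of platelets in the Pf4 and Ppbp values was not tested.

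Of the interferon-induced pair, Cxcl10 was above background on all 8 arrays. It read 7.94 and 7.97 in the tumor pool labelled HDC-KO and 6.96 and 7.30 in the wild-type tumor pool, against 5.40 and 5.26 in HDC-KO and 5.48 and 5.53 in wild-type bone marrow. It was 6.19-fold higher in tumor in the pools labelled HDC-KO and 3.08-fold in the wild-type pools (limma, adjusted p = 2.57e-06 and 7.62e-05). These measured folds ranked 164 of 6630 and 168 of 6787 genes at or above background in both pools compared. Cxcl9 read 6.69 and 7.07 in the tumor pool labelled HDC-KO and 4.00 and 4.20 in the wild-type tumor pool, against 2.15 and 2.53 in HDC-KO and 2.46 and 2.81 in wild-type bone marrow. Only the tumor pool labelled HDC-KO was above background, where Cxcl9 was at least 3.69-fold higher than in HDC-KO bone marrow (limma, adjusted p = 2.38e-06). Cxcl9 reached the test only through the 2 arrays of that tumor pool, so this direction was fixed and the p is no support for it. The wild-type tumor minus bone marrow difference of 1.47 ± 0.20 passed the test (limma, adjusted p = 0.0012) with both pools under log2 5, so it has no fold. The other Cxcl9 probe set read 2.57 to 2.89 on all 8 arrays and showed no Cxcl9 above background anywhere.

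Cxcl16, a membrane-bound chemokine that also takes up oxidised lipoprotein, read 5.70 and 6.65 in the tumor pool labelled HDC-KO and 6.88 and 6.99 in the wild-type tumor pool, against 2.55 and 2.62 in HDC-KO and 2.98 and 2.51 in wild-type bone marrow. It was at least 2.26-fold higher in tumor in the pools labelled HDC-KO and at least 3.82-fold in the wild-type pools (limma, adjusted p = 5.69e-05 and 8.66e-05). Its other probe set was close to background in tumor, at 4.95 and 5.49 in the pool labelled HDC-KO and 4.98 and 4.63 in the wild-type pool, against 2.44 to 2.86 on the bone marrow arrays. The probe set used for Cxcl16 carries a suffix of probes that may match several transcripts, and the other one does not.

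**Figure D2:**
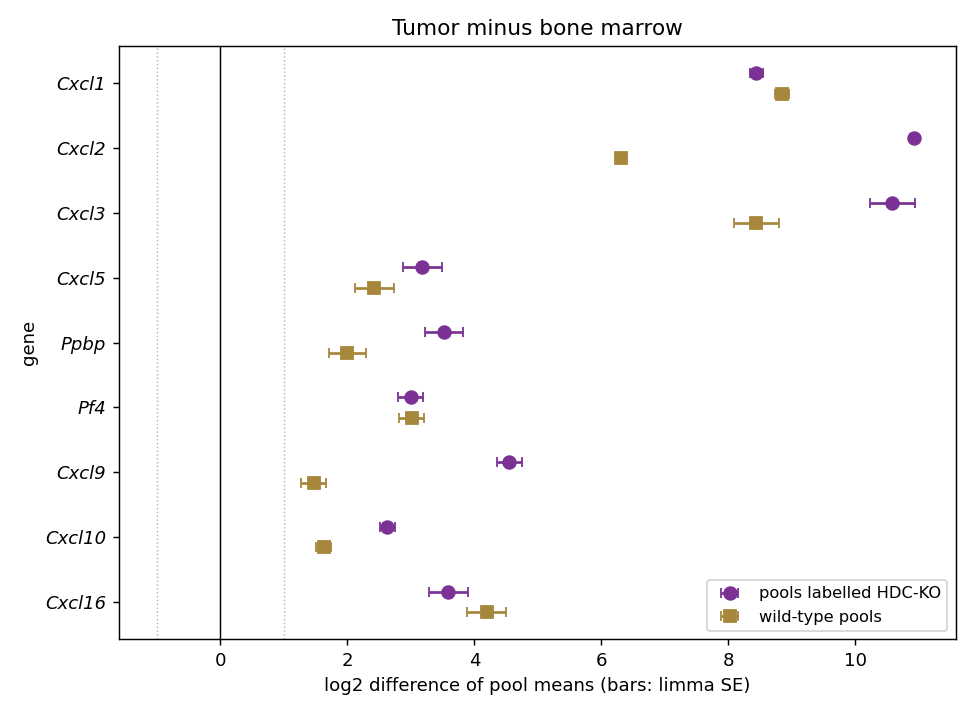
Tumor minus bone marrow log2 difference of pool means (horizontal axis) for the 9 CXC chemokines (vertical axis), with limma standard errors as bars; circles are the pools labelled HDC-KO and squares the wild-type pools, filled where the gene passed the test, and dotted lines mark a 2-fold difference. Cxcl1, Cxcl2 and Cxcl3 lie between 6.31 and 10.92, the other members between 1.47 and 4.55; differences that end below log2 5 depend on values under background and are not folds.

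In tumor minus bone marrow, 9 of 9 members were called higher in the pools labelled HDC-KO, where 21.1% of all tested genes were called higher and 15.4% lower, where a call needs a 2-fold difference or more together with an adjusted p under 0.05. In the wild-type pools 9 of 9 were called higher too, against 11.6% higher and 4.81% lower of all tested genes, and 6 once values were raised to log2 5, where Cxcl5, Ppbp and Cxcl9 were not called. These counts carry no weight of their own, since 7 of the 9 members reached the test only through their tumor arrays and so had to be higher there. For the same reason the tumor minus bone marrow p values of those 7 members are no support for their direction. Only Cxcl2 and Cxcl10 had 2 or more bone marrow arrays at or above background.

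Genes that induce or follow NF-kappa-B signalling were described beside the chemokines, from a list of 20 tested genes. Of all tested genes 21.1% were called higher in tumor and 15.4% lower in the pools labelled HDC-KO. In the wild-type pools the shares were 11.6% and 4.81%. In the pools labelled HDC-KO 12 were called higher in tumor and 1 lower, and in the wild-type pools 12 higher and 0 lower, where limma gave 3 lower at an unadjusted p under 0.05. Cd14, a coreceptor for lipopolysaccharide, was 94.2-fold higher in tumor in the pools labelled HDC-KO and 43.1-fold in the wild-type pools. Tnfaip3, a feedback inhibitor of NF-kappa-B, was 17.6-fold and 26.8-fold higher, and the cytokine Il1a at least 51.8-fold and at least 63.7-fold higher. Among 6 genes of chemokine mRNA decay 3 were called higher in tumor in each genotype. At an unadjusted p under 0.05, limma gave 2 of the 6 lower in the pools labelled HDC-KO and 1 in the wild-type pools. Zfp36l1 was 28.7-fold and 4.96-fold higher. Zfp36, the mRNA-destabilising tristetraprolin, was 4.38-fold and 4.97-fold higher, and the ribonuclease Zc3h12a 3.01-fold and 3.65-fold.

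Markers of other cells and of handling moved with the tissue as well. Their counts stand beside 21.1% of all tested genes called higher in tumor in the pools labelled HDC-KO and 11.6% in the wild-type pools. The 11 tested monocyte and macrophage markers were all called higher in tumor in both genotypes, with a summed linear level of 37504 to 38894 in the tumor pool labelled HDC-KO and 17317 to 17710 in the wild-type tumor pool, against 3698 to 3757 in HDC-KO and 2877 to 2978 in wild-type bone marrow. The 14 tested epithelial markers were also all called higher in both, with sums of 29675 to 31604 and 5953 to 6008 in those tumor pools, against 243 to 266 and 224 to 269 in those bone marrow pools. Of 12 early genes known to respond to tissue dissociation, 11 were called higher in the pools labelled HDC-KO and 10 in the wild-type pools, led by Egr1 at least 274-fold and at least 185-fold. The 11 fibroblast and endothelial markers were under log2 5 on all arrays. The summed granulocyte markers stayed within 140991 to 163961 on all 8 arrays. S100a8, S100a9 and Camp, close to the highest values of the arrays, made up most of this sum. Of the 7 tested markers limma gave 4 lower and 1 higher in tumor in the pools labelled HDC-KO at an unadjusted p under 0.05. In the wild-type pools it gave 1 lower and 0 higher. In pooled cells, fewer cells of a type and less RNA per cell cannot be told apart, and the part of these other cells and of handling in the chemokine differences was not tested.

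**Figure D3:**
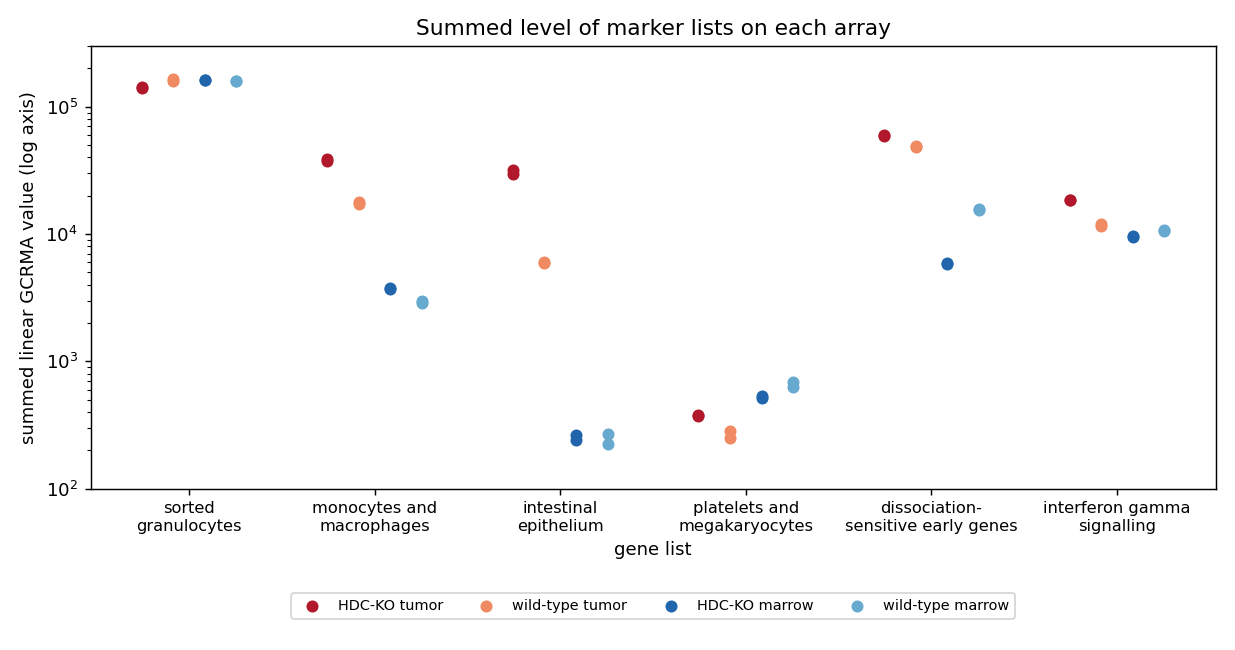
Summed linear GCRMA value of 6 gene lists (horizontal axis) on each array (vertical axis, log scale); points are the 2 technical arrays of a pool, coloured by pool, with tumor pools left of bone marrow pools. The macrophage, epithelial and early-gene sums are higher in both tumor pools than in both bone marrow pools, the platelet sum, most of it Itgb3 in bone marrow, is lower in tumor, and the granulocyte sums lie close together.

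In bone marrow, the question is what the loss of Hdc changes in marrow myeloid cells, and Cxcl2 was the member that differed most. The per-array values above place Cxcl2 below background on both HDC-KO arrays and above 7 on both wild-type arrays, a log2 difference of -4.56 ± 0.06 (SE, n = 2 technical arrays per pool; limma, adjusted p = 1.07e-06). Since the HDC-KO mean is under log2 5, the measured part of this is a bound of at least 5.46-fold lower, and with values raised to log2 5 the difference was -2.45 (limma, adjusted p = 1.74e-06). Cxcl3 followed in the same direction by -2.31 ± 0.35 (limma, adjusted p = 0.00676), with both pool means under log2 5 and thus no fold. Its difference was -1.71 without array 1 and -2.90 without array 2 of the wild-type pool, and it was -0.23 once values were raised to log2 5 (limma, adjusted p = 0.323). Cxcl1, next to Cxcl2 on the chromosome, was below background in both pools, as was the neighbour between Cxcl3 and Cxcl1, Cxcl15, on all arrays of the study.

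Ppbp was called higher in HDC-KO bone marrow by 1.17 ± 0.29 (limma, adjusted p = 0.0364), also with both means under log2 5. This call was lost when any 1 of the 4 bone marrow arrays was left out: the difference was 1.10 and 1.25 without HDC-KO array 1 or 2 and 0.91 and 1.44 without wild-type array 1 or 2 (limma, adjusted p = 0.15, 0.112, 0.16 and 0.0574). It was also lost with no filter on low values (limma, adjusted p = 0.0549) and at 0.01 with values raised to log2 5. Cxcl10, the one member measured above background in both pools, differed by -0.18 ± 0.12 (limma, adjusted p = 0.33). Of the 9 members, 1 was called higher and 2 lower in HDC-KO bone marrow, against 1.80% higher and 2.02% lower of all tested genes. Cxcl2 is the only one of the 3 calls with a pool above background, so the count rests on values under it. The members' median difference was -0.16, against -0.0014 over all tested genes.

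In bone marrow, of 20 NF-kappa-B genes 2 fell and 0 rose, where limma gave 5 higher at an unadjusted p under 0.05. Of all tested genes 1.80% were called higher and 2.02% lower in this comparison. Cd14 was 2.18-fold and the cytokine Il1b 2.12-fold lower in the HDC-KO pool. Of 12 early genes 2 fell, Fos 6.90-fold and the phosphatase gene Dusp1 3.05-fold. Fos read 9.23 and 9.07 in the HDC-KO pool, against 11.90 and 11.97 in the wild-type pool, and the summed early-gene level was 5841 to 5906 in the HDC-KO pool, against 15351 to 15609. Zfp36l1, which binds AU-rich mRNAs and promotes their decay, was 3.91-fold lower, the one call among 6 decay genes. The part of the early-gene difference in that of Cxcl2 was not tested. Of 7 T and NK cell markers 2 were called higher and 1 lower: Cd3d, a chain of the T cell receptor complex, was 28.8-fold higher in the HDC-KO pool, Gzma was called higher with both pools under log2 5, and Nkg7 was 2.08-fold lower. The other chains of the complex did not follow Cd3d: Cd3g had both pool means under log2 5, and Cd3e was under log2 5 on all arrays. The summed level of the list was 6022 to 6125 in the HDC-KO pool, against 768 to 1055 in the wild-type pool. Cd3d alone made up most of that sum in the HDC-KO pool. Of 4 tested platelet markers Selp was the one call, 2.15-fold lower in the HDC-KO pool. The part of these cells in the differences of Cxcl2, Cxcl3 and Ppbp was not tested. Of 11 macrophage markers 3 were called higher and 1 lower, and the 7 granulocyte markers gave no call, with 2 higher and 0 lower at an unadjusted p under 0.05 in limma.

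**Figure D4:**
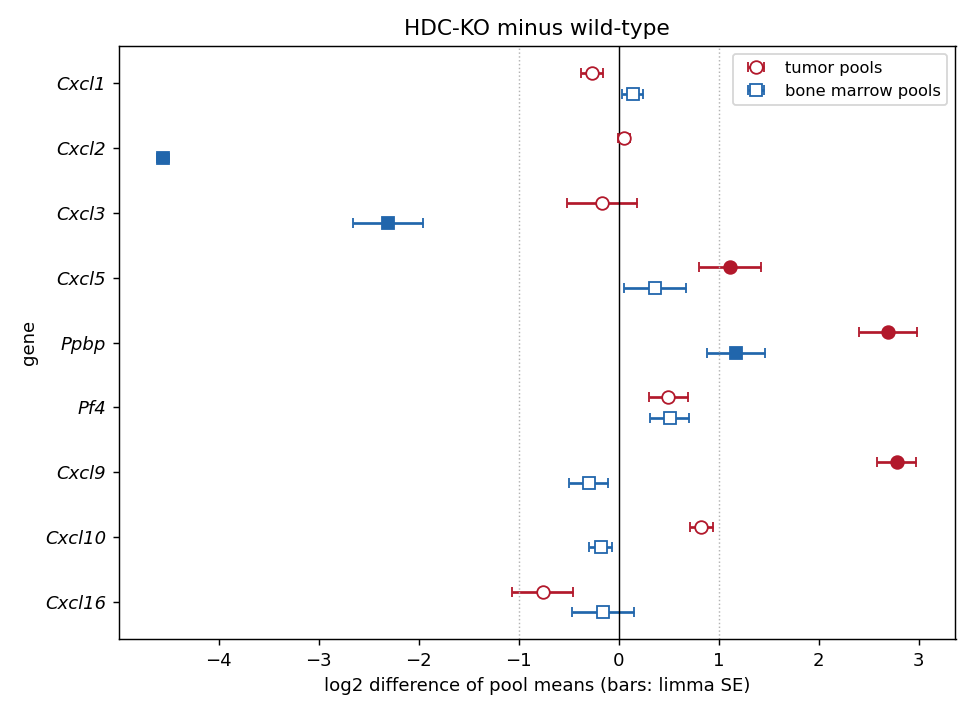
HDC-KO minus wild-type log2 difference of pool means (horizontal axis) for the 9 CXC chemokines (vertical axis), with limma standard errors as bars; circles are the tumor pools and squares the bone marrow pools, filled where the gene passed the test, and dotted lines mark a 2-fold difference. Cxcl2 and Cxcl3 are lower in bone marrow at -4.56 and -2.31 and near 0 in tumor, while Cxcl5, Ppbp and Cxcl9 are higher in tumor at 1.12, 2.70 and 2.78. Ppbp is also called higher in bone marrow, at 1.17. Both bone marrow means of Cxcl3 and of Ppbp lie under log2 5, so their bone marrow differences are not folds.

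In tumor, where the question is what the HDC-KO genotype changes in the cells of the tumor, the direction rests on the label of the HDC-KO pool. Ppbp, Cxcl9 and Cxcl5 were higher in the pool labelled HDC-KO, and Cxcl1, Cxcl2 and Cxcl3 gave no call. Ppbp was 6.48-fold higher, a log2 difference of 2.70 ± 0.29 (SE, n = 2 technical arrays per pool; limma, adjusted p = 0.00026), with no overlap between the arrays. Cxcl9 was at least 3.69-fold higher, with a log2 difference of 2.78 ± 0.20 (limma, adjusted p = 3.89e-05), since its wild-type tumor arrays were below background. With values raised to log2 5 the difference was 1.88. The other Cxcl9 probe set averaged 2.63 in the pool labelled HDC-KO and 2.67 in the wild-type pool, both under log2 5. Cxcl9 reached the test only through the 2 arrays labelled HDC-KO in tumor, so it could be called in that direction alone. Cxcl5 was 2.17-fold higher, a log2 difference of 1.12 ± 0.31 (limma, adjusted p = 0.0165). The Cxcl5 call was lost when the first array labelled HDC-KO was left out, at 0.88 (limma, adjusted p = 0.0879), when the first wild-type array was left out, at 0.84 (limma, adjusted p = 0.0882), and with quantile normalization, at 0.82 (limma, adjusted p = 0.087).

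The members with no call differed in how close they came. Cxcl10 was higher by 0.83 ± 0.12 on the log2 scale, 1.77-fold, which is under the 2-fold threshold though its arrays did not overlap (limma, adjusted p = 0.000835). Pf4 differed by 0.50 ± 0.19 (limma, adjusted p = 0.0564), unlike its chromosomal neighbour Ppbp, and Cxcl16 by -0.76 ± 0.31 (limma, adjusted p = 0.0638). With the second array labelled HDC-KO left out, Cxcl16 passed the test at -1.23 (limma, adjusted p = 0.00354), and with quantile normalization at -1.07 (limma, adjusted p = 0.032). Its other probe set differed the other way, by 0.42, with the wild-type mean under log2 5 and overlapping arrays. Cxcl1 differed by -0.26 ± 0.11, Cxcl2 by 0.06 ± 0.06 and Cxcl3 by -0.16 ± 0.35 (limma, adjusted p = 0.0654, 0.408 and 0.687). In all, 3 of 9 members were called higher and 0 lower in tumor, against 15.5% higher and 10.5% lower of all tested genes. The count includes Cxcl9, whose direction the filter fixed, and it was 2 when the probe sets of a gene were averaged. At an unadjusted p under 0.05, limma gave 2 lower members, Cxcl1 and Cxcl16. The median over the members was 0.50, against 0.03 over all tested genes.

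Interferon-gamma signalling genes were described beside Cxcl9 and Cxcl10. Between the tumor pools 15.5% of all tested genes were called higher and 10.5% lower. Of the 10 interferon-gamma genes tested, 5 were called higher in the tumor pool labelled HDC-KO and 0 lower, also at an unadjusted p under 0.05 in limma. They were Ciita, the activator of MHC class II genes, at least 4.39-fold, the guanylate-binding protein gene Gbp3 3.27-fold, the immunoproteasome gene Psmb8 2.12-fold, and the receptor genes Ifngr1 and Ifngr2 2.12-fold and 2.02-fold. Ifng itself was under log2 5 on all arrays. Of 7 T and NK cell markers 5 were higher, led by Gzma at 11.3-fold, and Cd3d was 3.38-fold lower. The summed level of that list was 3450 to 3535 in the tumor pool labelled HDC-KO, against 4382 to 4611 in the wild-type tumor pool. Of 11 macrophage markers 8 were higher, led by Mertk at 11.9-fold, and of 14 epithelial markers 13 were higher, led by Cldn3 at 20.8-fold and Vil1 at 20.1-fold. Of 4 tested platelet markers 2 were higher, P2ry12 at least 2.77-fold and Clec1b 2.79-fold, and Itgb3 was called lower with both pools under log2 5. The part of these cell types in the differences of Ppbp, Cxcl5 and Cxcl9 was not tested.

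The genotype differences in the tumor and bone marrow pools were then set against each other in the same fit. Hdc itself differed by -3.35 in bone marrow and by -0.21 in tumor, so the tumor side rests on the label of the HDC-KO pool. For 5 of 9 members the HDC-KO minus wild-type difference was higher in tumor than in bone marrow, and for 0 lower, against 16.8% higher and 11.7% lower of all tested genes. At an unadjusted p under 0.05, limma gave 1 lower member, Cxcl1, at -0.40 ± 0.15. Cxcl2 stood at 4.61 ± 0.08 (SE; limma, adjusted p = 2.31e-06), made up of 0.06 in tumor and -4.56 in bone marrow, and at 2.51 with values raised to log2 5 (limma, adjusted p = 1.38e-06). Cxcl9 stood at 3.08 ± 0.28 (limma, adjusted p = 0.000173), made up of 2.78 in tumor and -0.30 in bone marrow. Cxcl9 was under log2 5 in all pools but the tumor pool labelled HDC-KO, and it reached the test only through the 2 arrays of that pool. With values raised Cxcl9 stood at 1.88 (limma, adjusted p = 0.000127) and could only come out higher. The count of 5 includes it. Cxcl3 stood at 2.14 ± 0.49 (limma, adjusted p = 0.00931) and at 0.07 with values raised to log2 5, where it was not called and Cxcl5 was, at 1.12 (limma, adjusted p = 0.0167).

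Ppbp and Cxcl10 were closer to the threshold. Ppbp stood at 1.52 ± 0.41 (limma, adjusted p = 0.0177) and, with its bone marrow values raised to log2 5, at 2.69 (limma, adjusted p = 0.000769). Without raising, the call was lost at 1.44 without HDC-KO bone marrow array 2, at 1.28 without wild-type tumor array 1 and at 1.26 without wild-type bone marrow array 2 (limma, adjusted p = 0.055, 0.0554 and 0.0527). Cxcl10 stood at 1.01 ± 0.16 (limma, adjusted p = 0.00215) and fell short of 1 at 0.99 without array 2 of the tumor pool labelled HDC-KO, 0.83 without wild-type tumor array 1, 0.93 without HDC-KO bone marrow array 2 and 0.98 without wild-type bone marrow array 2. Cxcl16, at -0.60 ± 0.43, was called lower at -1.07 without array 2 of the tumor pool labelled HDC-KO. Pf4 stood at -0.01 ± 0.27 (limma, adjusted p = 0.968). The median over the members was 1.01, against 0.05 over all tested genes. All 4 pools enter this difference, so it shares its arrays with the comparisons above.

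The order of the pools differed between members. Cxcl2, Cxcl5, Cxcl9, Cxcl10, Pf4 and Ppbp were highest in the tumor pool labelled HDC-KO, and Cxcl1, Cxcl3 and Cxcl16 in the wild-type tumor pool, although the 2 tumor pools differed by more than the test's threshold only for Cxcl5, Cxcl9 and Ppbp. The higher of the bone marrow pools was the wild-type one for Cxcl2, Cxcl3, Cxcl9, Cxcl10 and Cxcl16, and the HDC-KO one for Cxcl1, Cxcl5, Pf4 and Ppbp. Apart from Cxcl2 and Cxcl10, that order was among pool means under background and has no meaning as a level.

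The receptors were measured as well. Cxcr2, the receptor of the neutrophil chemokines, read 11.62 and 11.64 in the tumor pool labelled HDC-KO and 11.52 and 11.50 in the wild-type tumor pool, against 11.81 and 11.76 in HDC-KO and 11.70 and 11.74 in wild-type bone marrow. Cxcr4, the receptor of Cxcl12, lay between 11.19 and 12.01 on all arrays. Neither was called in any of the 5 comparisons in limma. The largest of their differences was the Cxcr4 difference of genotype effects, -0.94 ± 0.06 (limma, adjusted p = 5.67e-05), which is under the 2-fold threshold. Cxcr3, Cxcr5, Cxcr6, Ackr1 and Ackr3 were under log2 5 on all arrays. Of the other CXC ligands, Cxcl14 was at least 1.76-fold higher in tumor in the pools labelled HDC-KO and at least 2.42-fold in the wild-type pools, and Cxcl11, Cxcl12, Cxcl13, Cxcl15 and Cxcl17 were under log2 5 on all arrays.

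Proteases that trim or shed CXC chemokines were read from a list of 8 tested genes. In the tumor pool labelled HDC-KO, against the wild-type tumor pool, the neutrophil serine proteases Ctsg, Prtn3 and Elane were lower, at least 15.3-fold, 4.82-fold and at least 2.43-fold, and Dpp4, an exopeptidase that clips Cxcl9 and Cxcl10, was at least 4.80-fold higher. In bone marrow Adam17, a sheddase, was 2.04-fold higher in the HDC-KO pool, against the wild-type pool, and was the one call. In tumor against bone marrow, 5 were lower and 1 higher in the pools labelled HDC-KO, and 3 were lower in the wild-type pools. The shares of all tested genes called in these comparisons are given above with the member counts.

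The genes most like each member were found by the distance between their 4 pool means. Each mean was raised to log2 5, and the 4 were centred on their own mean. The search covered the tested genes, without predicted genes and RIKEN or similar clone symbols. For Cxcl3 the nearest were Ptgs2 at a distance of 0.22 and Ccrl2 at 0.58. Ptgs2, the inducible prostaglandin synthase, read 13.02 and 13.06 in the tumor pool labelled HDC-KO and 13.31 and 13.29 in the wild-type tumor pool, against 3.45 and 3.38 in HDC-KO and 5.14 and 5.24 in wild-type bone marrow. Cxcl2 had no close match: its nearest genes, Ccrl2, a chemokine-binding receptor, and Ptgs2, lay at 1.45 and 1.69. The gene nearest to Cxcl1 was the Y-linked Eif2s3y at 0.33, ahead of the lipid transporter gene Abca1 at 0.45 and the cytokine gene Il1a at 0.51. Ppbp lay nearest to Spink4, a goblet cell gene, at 0.01, Cxcl9 to Clic5 at 0.00, Cxcl5 to Tbc1d9 at 0.03, Cxcl10 to Abhd4 at 0.11, Cxcl16 to Fam20c at 0.16 and Pf4 to Bcl2l11 at 0.19. Raising the means set Cxcl9 to log2 5 in all pools but the tumor pool labelled HDC-KO, and Ppbp to log2 5 in both bone marrow pools. Their small distances therefore rest on few measured levels. With 4 pools, a small distance is a description of these pools only.

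Genes next to the chemokine runs on the chromosome did not all move with them. Rassf6 and Mthfd2l, which flank the run from Cxcl5 to Cxcl2, and Art3, which lies between Cxcl9 and Cxcl10, were under log2 5 on all arrays. Sdad1, on the far side of Cxcl9, was 2.59-fold higher in the tumor pool labelled HDC-KO than in the wild-type tumor pool (limma, adjusted p = 4.42e-05), and Nup54, beyond Cxcl10, lay between 9.48 and 9.82 on all arrays and was not called. Beside Cxcl16, Med11 lay between 8.85 and 9.35, and Zmynd15 was under log2 5 on all arrays.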

How the data were processed

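RNA of sorted CD11b+Gr-1+ cells was hybridised to 8 single-colour Affymetrix arrays. The authors deposited log2 values for 45101 probe sets, for which the submitters' processing notes name GCRMA, and their range gave the log2 scale. GCRMA subtracts a sequence-based background and normalizes the arrays together, so small differences near background depend on it. The authors used a version not given in the sources used here. Precision is limited by the number of arrays. Names came from the platform annotation: 34958 probe sets had 1 symbol, 932 several and 9211 none.

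Each of 18194 genes was read from its probe set of highest mean. Genes reaching log2 5 on 2 or more arrays, 8174 in all, entered limma 3.58.1 in R 4.3.3 (lmFit, eBayes), which was fitted on all 4 groups with 4 residual degrees of freedom and 2.14 prior ones. Calls needed a Benjamini-Hochberg adjusted p under 0.05 over all tested genes and a log2 difference of 1 or more in size. Where 1 pool mean lay under log2 5, the fold is a bound. The fit was tested on simulated data. Errors of differences are limma standard errors.

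Groups came from the sample titles. The members and the 13 other gene lists were chosen with earlier results of these data known. The genes named are all members, Hdc, up to 3 called genes a list and comparison by size, and the 3 genes nearest to each member, not all of which are printed. Chromosomal neighbours, the sex-linked genes, Itgam, the platelet markers under log2 5, Cxcr2, Cxcr4 and single list genes outside that rule were named after their values were seen.

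Same-numbered arrays deviated with r of -0.01 to 0.06 between groups, so the numbers name arrays and pair none. Promoters were searched with Python 3.11.15. The alternatives changed the filter (none, or log2 7), raised low values to log2 5, renormalized by quantiles or medians, averaged the probe sets of a gene or tested all of them, fitted the compared groups alone, used a trended and robust variance, blocked on the replicate number, and dropped each array in turn. Dropping probe sets ending in s_at or x_at was added after seeing the data. Scan dates were not used here.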

Additional observations from a re-analysis of the deposited data

Results flagged for a closer look

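For 5 members the HDC-KO minus wild-type difference was not the same in tumor and in bone marrow, by a direct test of the difference of the differences in limma. It was 4.61 for Cxcl2, 3.08 for Cxcl9, 2.14 for Cxcl3, 1.52 for Ppbp and 1.01 for Cxcl10, on the log2 scale and tumor minus bone marrow. All 5 were higher in tumor, against 16.8% higher and 11.7% lower of all tested genes. Cxcl2, Cxcl3, Cxcl9 and Ppbp include pool means under log2 5. The Cxcl10 call was lost with quantile normalization and median centring, at 0.90 and 0.89. Leaving out certain single arrays also lost the Cxcl10 call and the Ppbp call. Cxcl9 reached the test only through the 2 arrays labelled HDC-KO in tumor, and its other probe set was under log2 5 on all arrays. With values raised to log2 5 the differences were 2.51 for Cxcl2, 1.88 for Cxcl9, 0.07 for Cxcl3 and 2.69 for Ppbp. Hdc stood at 3.14 in the same test, made up of -0.21 in tumor and -3.35 in bone marrow. The tumor side of each difference therefore rests on the label of the HDC-KO pool. The test compares 4 pools over technical arrays.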

How the results depend on the processing

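With every probe set tested instead of 1 a gene, the calls were 502 for genotype in bone marrow, 3300 for genotype in tumor, 4898 for tissue in the pools labelled HDC-KO, 2147 for tissue in the wild-type pools and 3728 for the difference of genotype effects, against 312, 2122, 2986, 1338 and 2330, because more features were tested. Of the members, 1 was called in bone marrow with values raised to log2 5 and 1 in tumor with a filter at log2 7, which leaves fewer members tested. With 1 array left out, the members called ran over 2 to 3 in bone marrow, 2 to 4 in tumor and 3 to 5 for the difference of effects, where 3 were called without wild-type tumor array 1, HDC-KO bone marrow array 2 or wild-type bone marrow array 2. Both tissue comparisons kept a count of 9 in each of these. Where that leaves 1 array, its spread was taken from the other pools. Under quantile normalization and median centring the Cxcl10 difference of effects was 0.90 and 0.89. With values raised to log2 5, Cxcl5 and Ppbp in wild-type tumor against bone marrow stood at 0.42 and 0.76 and were not called, and Cxcl9 at 0. The Cxcl5 difference of effects was then called, at 1.12. No alternative turned a called direction. With the replicate block the calls were 312, 2122, 2986, 1339 and 2327 and no member's call changed. Cxcl16 was not tested without probe sets ending in s_at or x_at. Where both pools lie under log2 5, signal over background limits what can be said.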
